A study of Homo sapiens with 4 samples.

Results

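The Hippo kinase cascade was followed as a list of 10 genes in HCT116 cells, a human colorectal carcinoma line, after transfection of siRNA against KIF26B, a member of the kinesin superfamily. The genes were chosen by name, with earlier results of these data known. They were the kinases STK3, STK4, LATS1, LATS2 and TAOK1, the adaptors SAV1, MOB1A and MOB1B, and the scaffolds NF2 and WWC1. All 10 were found among the 58735 Ensembl identifiers measured, and all 10 were among the 14523 whose average over the libraries reached 1 FPKM (fragments per kilobase of gene, scaled to the size of the library), which made up the tested set. Poly(A) RNA was sequenced 48 h after transfection in 4 libraries. Each of the 2 groups, control siRNA and KIF26B siRNA, held replicates numbered 1 and 2, and the labels give one culture and transfection protocol for both. Which of the siRNAs against KIF26B went into which library was not given in the sources used here. The labels do not say whether the replicates are separate cultures, so the P values measure only the spread between these libraries, which may be technical.

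The Hippo pathway restrains tissue growth. TAOK kinases activate the Ste20-like kinases MST2 and MST1 (the products of STK3 and STK4), which pair with the scaffold SAV1 and phosphorylate LATS1, LATS2 and their coactivators MOB1A and MOB1B. The membrane-associated proteins merlin (NF2) and KIBRA (WWC1) bring these kinases together, and active LATS kinases phosphorylate YAP and TAZ, which are then kept out of the nucleus. In intestinal epithelium, YAP and TAZ are known for their part in regeneration and tumour growth. Much of the cascade's control is by phosphorylation, which mRNA levels do not show.

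The labels were first checked with the targeted gene. With control siRNA, KIF26B had 31 and 73 reads (0.110 and 0.205 FPKM). With KIF26B siRNA it had 43 and 8 reads (0.140 and 0.0307 FPKM). The library labelled KIF26B siRNA replicate 1 was thus between the controls in the targeted gene, and only replicate 2 was below both. The log2 difference of KIF26B between the groups was −0.09 (SE 0.094, adjusted p = 0.775 from limma without a filter on low values), and −1.13 with limma-voom on the recovered reads (adjusted p = 0.579). The label of replicate 1 had no support from this gene, and every direction given here is that of the labels. Between 20249066 and 26261658 reads were recovered per library, more in each than the library size that its FPKM values imply (18068934 to 24673739). The recovered totals may thus be too high. Of these reads, mitochondrial genes held 6.46% and 6.47% in the control and 9.08% and 7.30% in the KIF26B siRNA libraries. Of 8 colon epithelial markers, 7 were at 1 FPKM or more in every library, and VIL1 was below it. The summed level of these markers was 1736 to 1748 FPKM in control and 1626 to 1724 FPKM in KIF26B siRNA libraries. Of 10 leukocyte, fibroblast and endothelial markers with a match, only COL1A1 reached 1 FPKM in every library, CD3E was at 0 throughout, and the summed level was 7.52 to 7.84 FPKM in control and 5.27 to 9.32 FPKM in KIF26B siRNA libraries. The part of these differences in the results was not tested.

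To show where transcription of the genes that differed most from control starts, the 250 bases upstream of a RefSeq start site are given for SAV1, WWC1 and NF2 (GRCh38.p14). SAV1 lies on the minus strand at chr14:50668307-50668556, WWC1 on the plus strand at chr5:168291395-168291644 and NF2 on the plus strand at chr22:29603383-29603632. Capitals mark matches to the GC box GGGCGG or its reverse complement CCGCCC.
SAV1: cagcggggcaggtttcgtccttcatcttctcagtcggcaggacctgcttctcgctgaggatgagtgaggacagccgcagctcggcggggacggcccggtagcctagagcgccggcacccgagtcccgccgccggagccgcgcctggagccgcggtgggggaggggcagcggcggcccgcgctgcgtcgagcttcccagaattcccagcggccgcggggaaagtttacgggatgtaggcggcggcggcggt
WWC1: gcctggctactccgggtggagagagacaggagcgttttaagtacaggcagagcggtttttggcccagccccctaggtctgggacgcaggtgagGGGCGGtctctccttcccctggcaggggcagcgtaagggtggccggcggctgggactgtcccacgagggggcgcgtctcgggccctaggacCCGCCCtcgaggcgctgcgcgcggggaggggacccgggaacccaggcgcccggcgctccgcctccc
NF2: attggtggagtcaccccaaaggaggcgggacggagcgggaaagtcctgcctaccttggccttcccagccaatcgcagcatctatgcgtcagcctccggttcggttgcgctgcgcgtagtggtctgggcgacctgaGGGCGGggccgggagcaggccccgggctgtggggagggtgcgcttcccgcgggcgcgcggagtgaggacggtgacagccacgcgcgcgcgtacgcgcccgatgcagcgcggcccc

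These windows were rich in CpG dinucleotides, with 33 in SAV1, 23 in WWC1 and 31 in NF2 against a median of 11 over all 35116 RefSeq windows of this length. A second NF2 window had 16. Over all windows of the cascade genes the number ranged from 2 to 33, so a high number was not particular to these 3 genes. A window was held for 9 of the 10 genes, with 13 start sites in all. A GC box stood in 9 of these 13 windows and in 42.6% of all windows. SAV1 had none in its window, and MOB1A, LATS1 and TAOK1 each had 1 window with and 1 without. The CCAAT box (CCAAT or ATTGG) was matched in 3 of the 13 windows, 1 of MOB1A and both, which overlap, of NF2, and in 32.0% of all windows. The TEAD motif (CATTCC or GGAATG), the element bound by the partners of YAP and TAZ, was matched in 0 of the 13 windows and in 11.9% of all windows.

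The levels of the cascade genes spanned a wide range in HCT116 cells. In the control siRNA libraries MOB1A had the highest level (36.2 ± 0.87 FPKM, SD, n = 2). It was followed by SAV1, NF2, WWC1, STK4, TAOK1, MOB1B and LATS2, and the lowest levels were those of LATS1 (4.01 ± 0.089 FPKM, SD, n = 2) and STK3 (3.26 ± 0.091 FPKM, SD, n = 2). In the controls, 0 of the 9 pairs of neighbours in this order overlapped in their values. In the KIF26B siRNA libraries 5 of the 9 pairs overlapped, among them NF2 with SAV1 and LATS1 with STK3, and MOB1A remained above all others. FPKM is scaled to gene length, so the order of the genes also depends on the length used for each. Whether these lengths match the transcripts present in the cells was not tested.

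**Figure D1:**
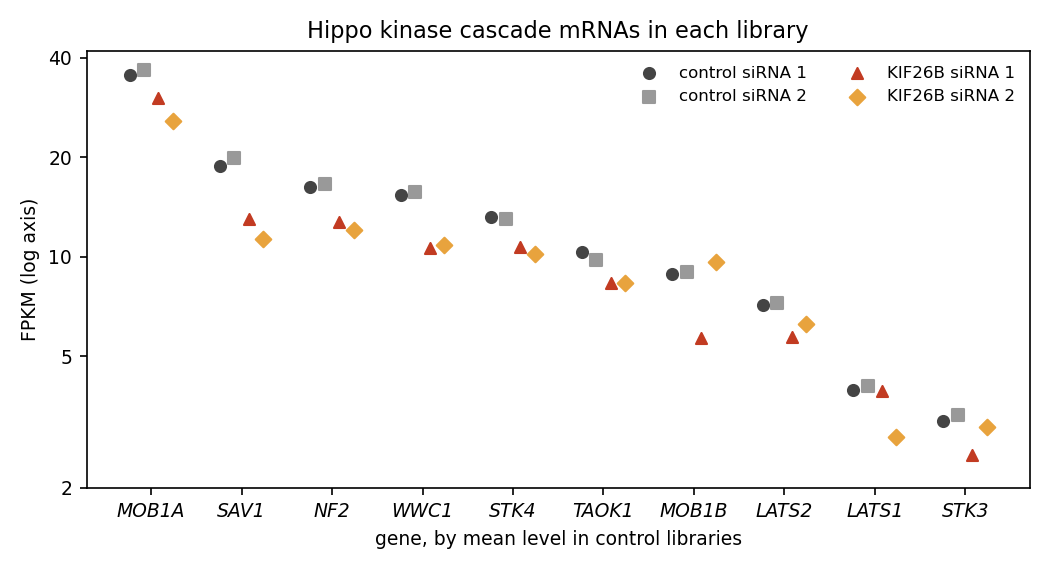
Levels of the 10 Hippo kinase cascade genes in FPKM (log axis), 1 point per library, with genes ordered by their mean in the control siRNA libraries. Every gene but MOB1B had both KIF26B siRNA libraries below both controls, and MOB1A was the highest gene in each library.

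Each of the 10 genes had a lower mean in the KIF26B siRNA libraries than in the controls, and for 9 of them both KIF26B siRNA libraries lay below both controls. Of all 14523 genes tested, 7490 had a log2 difference below 0, 27.8% were lower without overlap in the same way, and 24.9% were higher. The differences were small, with a median of 18.9% in FPKM over the 10 genes and a median difference of −0.28 in log2(FPKM + 1), against −0.01 for all genes tested. At an unadjusted P below 0.05 in limma, 3 genes (SAV1, WWC1 and NF2) were lower and 0 were higher, where 8.68% of all genes tested were lower and 7.74% higher. After Benjamini-Hochberg adjustment over all genes, 0 of the 10 and 0.0% of all genes tested had a p below 0.05, and limma's smallest adjusted p of any gene was 0.242. Without adjustment 2385 genes had a P below 0.05. None of the 10 was lower by more than 1 on the log2 scale at an unadjusted P below 0.05 (0.606% of all genes tested). Because the 10 genes were chosen with earlier results of these data known, these counts describe the list and are not independent support. In bulk RNA, fewer cells with these transcripts and less of them per cell cannot be told apart.

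**Figure D2:**
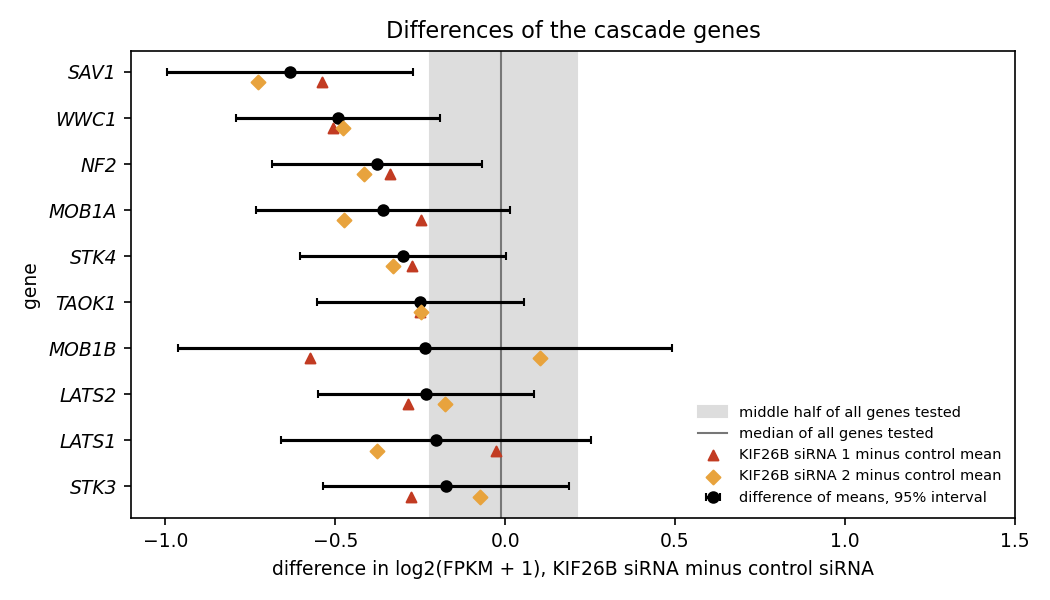
Difference in log2(FPKM + 1) between KIF26B siRNA and control siRNA libraries for each gene, with its 95% interval from limma (black), and each KIF26B siRNA library minus the control mean (coloured points). The grey band spans the lower to the upper quartile of all genes tested, from −0.22 to 0.21. SAV1, WWC1 and NF2 are the genes whose intervals lie below 0, and MOB1B has the widest interval.

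The scaffold SAV1 had the largest difference. SAV1 (ENSG00000151748), which holds MST kinases in an active complex through their shared SARAH domains, lies on chromosome 14 of GRCh37 from 51098776 to 51135024. Its levels were 18.8 and 19.98 FPKM in the control group (2078 and 2776 reads), against 13.0 and 11.3 FPKM with KIF26B siRNA (1568 and 1150 reads). Both KIF26B siRNA libraries were thus well below both controls, and the mean was 0.628 times that of the controls. The log2 difference was −0.63 (SE 0.13, 95% interval −0.99 to −0.27), with an adjusted p of 0.242 from limma, and 4.10% of all genes tested had a lower value. This share was 7.68% for WWC1 and 13.1% for NF2. For the remaining cascade genes it ranged from 14.1% (MOB1A) to 29.9% (STK3). In the annotation, 1789 of the 5605 exon bases of SAV1 also belong to exons of ATL1 on the opposite strand. ATL1 was at no more than 1.15 FPKM in any library, and whether the counting used the strand was not stated, so reads in the shared bases cannot be assigned to one strand.

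The upstream scaffolds WWC1 and NF2 were next. WWC1 (ENSG00000113645; chromosome 5, 167718650 to 167899308), which encodes KIBRA, was at 15.4 and 15.7 FPKM with control siRNA and at 10.7 and 10.9 FPKM with KIF26B siRNA. The libraries of each group lay close together, and the groups were well apart. The log2 difference was −0.49 (SE 0.11, 95% interval −0.79 to −0.19), with an adjusted p of 0.243 from limma. NF2 (ENSG00000186575; chromosome 22, 29999545 to 30094587), which encodes the tumour suppressor merlin, was at 16.3 and 16.6 FPKM with control siRNA and at 12.8 and 12.05 FPKM with KIF26B siRNA. NF2 was also lower in both libraries, to a similar extent in each. Its log2 difference was −0.38 (SE 0.11, 95% interval −0.69 to −0.07), with an adjusted p of 0.272 from limma. With the replicate number as a block, SAV1 and WWC1 kept an unadjusted P below 0.05 in limma and NF2 did not, and the adjusted p of each of the 3 genes was then 0.398 or more. The counting error of a single library was 1.31% to 4.74% over the 10 genes. It leaves out the spread between libraries, so it does not measure the uncertainty of these differences.

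Among the kinases, STK4 and TAOK1 had differences that were alike in both KIF26B siRNA libraries, but their intervals included 0. STK4 (ENSG00000101109; chromosome 20, 43595135 to 43708662), the MST1 kinase, was at 13.2 and 13.1 FPKM with control siRNA and at 10.7 and 10.2 FPKM with KIF26B siRNA. The groups did not overlap, and the log2 difference was −0.30 (SE 0.11, 95% interval −0.61 to 0.0013, adjusted p = 0.305 from limma). TAOK1 (ENSG00000160551; chromosome 17, 27717381 to 27878921), which acts upstream of the MST kinases, was at 10.4 and 9.82 FPKM with control siRNA and at 8.31 and 8.34 FPKM with KIF26B siRNA. For this gene the control libraries differed more than the KIF26B siRNA libraries did, and the log2 difference was −0.25 (SE 0.11, 95% interval −0.56 to 0.06, adjusted p = 0.357 from limma). STK3 (ENSG00000104375; chromosome 8, 99383456 to 99955055), the MST2 kinase and the lowest of the 10 genes in the controls, was at 3.19 and 3.32 FPKM with control siRNA and at 2.52 and 3.05 FPKM with KIF26B siRNA. Replicate 2 thus lay just below the controls, and the log2 difference of −0.17 (SE 0.13) had an adjusted p of 0.544 from limma.

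The LATS kinases, which phosphorylate YAP and TAZ directly, had mean levels 15.6% (LATS1) and 16.9% (LATS2) lower with KIF26B siRNA. LATS1 (ENSG00000131023; chromosome 6, 149979289 to 150039241) was at 3.95 and 4.07 FPKM with control siRNA and at 3.92 and 2.86 FPKM with KIF26B siRNA. Only replicate 2 was clearly lower, since replicate 1 lay just under the lower control. LATS2 (ENSG00000150457; chromosome 13, 21547175 to 21635725), which is also known as a target gene of YAP and TAZ, was at 7.14 and 7.27 FPKM with control siRNA and at 5.72 and 6.25 FPKM with KIF26B siRNA. Here both libraries were lower, replicate 1 more so. The log2 differences were −0.20 for LATS1 (SE 0.16, adjusted p = 0.576 from limma) and −0.23 for LATS2 (SE 0.11, adjusted p = 0.392 from limma), and the 95% intervals of −0.66 to 0.25 and −0.55 to 0.08 include 0.

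The MOB1 adaptors, which bind and activate LATS kinases, behaved differently from each other between the libraries. MOB1A (ENSG00000114978; chromosome 2, 74379655 to 74406025) was at 35.6 and 36.8 FPKM with control siRNA and at 30.3 and 25.8 FPKM with KIF26B siRNA. Both libraries were lower, replicate 2 more so, and the log2 difference was −0.36 (SE 0.13, 95% interval −0.73 to 0.01, adjusted p = 0.311 from limma). MOB1B (ENSG00000173542; chromosome 4, 71768043 to 71888166) was at 8.89 and 9.01 FPKM with control siRNA and at 5.68 and 9.67 FPKM with KIF26B siRNA. It was the only gene of the 10 whose groups overlapped, with replicate 1 lowest and replicate 2 highest of the 4 libraries. Its log2 difference of −0.24 (SE 0.26, adjusted p = 0.680 from limma) turned to 0.10 without KIF26B siRNA replicate 1. Of its 8801 exon bases, 199 are shared with DCK on the same strand, which reached 15.6 FPKM.

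The replicates of each group were compared gene by gene. Between control libraries, the ratio of replicate 2 to replicate 1 ranged from 0.948 (TAOK1) to 1.06 (SAV1), and its 95% interval from the reads alone included 1 for 8 of the 10 genes. Between the KIF26B siRNA libraries this ratio ranged from 0.729 for LATS1 (95% interval 0.647 to 0.822) to 1.70 for MOB1B (95% interval 1.57 to 1.84), and the interval included 1 for 5 genes. The others were SAV1 (0.867) and MOB1A (0.851), which were lower in replicate 2, and STK3 (1.21), which was higher in it. These exact intervals cover counting error only and compare single libraries, not conditions. They were made for the 10 genes only, so whether other genes spread in the same way was not tested. Against the control mean, the median log2 difference of the 10 genes was −0.28 in replicate 1 and −0.35 in replicate 2. For all genes tested the medians were −0.02 and −0.0046. In replicate 1, 10 of the 10 genes and 52.4% of all genes tested were lower. In replicate 2 these were 9 genes and 50.5%.

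The balance within each pair of paralogs was followed next, since a ratio within a library does not depend on how the library was scaled. The size of a ratio still depends on the gene lengths used. MOB1A exceeded MOB1B by 4.003 and 4.08 times in the control libraries, and by 5.33 and 2.67 times in the KIF26B siRNA libraries. LATS2 exceeded LATS1 by 1.81 and 1.78 times in the control libraries, and by 1.46 and 2.19 times in the KIF26B siRNA libraries. For both pairs the KIF26B siRNA libraries thus lay on either side of the controls, which were close to each other. The ratio of STK3 to STK4 was 0.242 and 0.255 with control siRNA and 0.235 and 0.298 in the KIF26B siRNA libraries. The differences in mean log2 ratio were −0.10 for MOB1A/MOB1B, −0.01 for LATS2/LATS1 and 0.09 for STK3/STK4. An exact two-sided permutation test gave p = 1.0 for each of the 3 pairs, also after Benjamini-Hochberg adjustment, and cannot go below 0.33 with 2 libraries against 2. At most 0.0858% of the 31-base words in the transcripts of one gene of a pair occurred in the other.

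**Figure D3:**
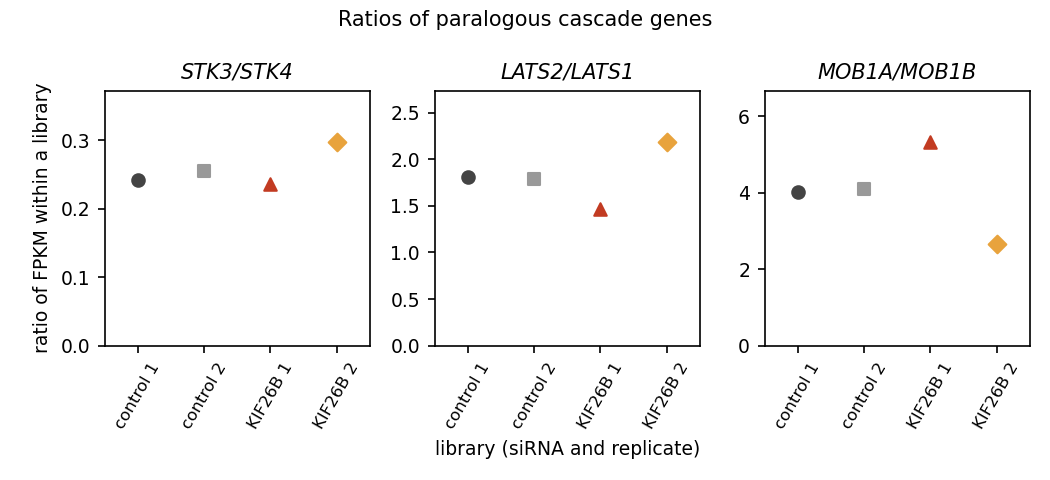
Ratio of FPKM within each library for STK3/STK4, LATS2/LATS1 and MOB1A/MOB1B, 1 point per library, with axes from 0. For LATS2/LATS1 and MOB1A/MOB1B the control libraries lie together and the KIF26B siRNA libraries lie on opposite sides of them.

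The wider pathway was described with lists of related genes, also chosen with earlier results of these data known. At an unadjusted P below 0.05, 8.68% of all genes tested were lower and 7.74% higher. Their median log2 difference was −0.01 over all genes tested. Of 15 tested genes (17 listed) among other TAOK, MAP4K and NDR kinases, MOB adaptors and WWC scaffolds, 2 were lower and 1 higher at an unadjusted P below 0.05, with a median log2 difference of −0.10. WWC3, a paralog of WWC1, had a log2 difference of −0.44 (adjusted p = 0.280 from limma) and MAP4K3, a kinase that can phosphorylate LATS kinases, of −0.34 (adjusted p = 0.292 from limma). MOB3C was the gene with a higher level (log2 difference 0.46, adjusted p = 0.304 from limma). Among 22 tested upstream scaffolds and junction proteins (27 listed), 3 were lower and 0 higher at an unadjusted P below 0.05, with a median of −0.19 over all 22. The 3 were AMOTL2, an angiomotin that binds YAP (−1.21), the tight junction protein TJP1 (−0.60) and the polarity protein LLGL1 (−0.56). Each had an adjusted p of 0.242 from limma.

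Of the 31 listed inhibitors of the cascade, all of which were tested, 5 were lower and 0 higher at an unadjusted P below 0.05. The shares of all genes tested were 8.68% and 7.74%. The median of the inhibitors, −0.19, was below 0 like that of the activators. The 5 lower genes included NEDD4, a ubiquitin ligase (−0.57), and PPP2CB, FGFR1OP2 and MOB4 (−0.56, −0.51 and −0.39), which belong to the STRIPAK phosphatase complex that acts on MST kinases. The fifth, named after its value was seen, was STK26, a kinase of the same complex (−0.37). The adjusted p of each of these genes was at least 0.242 in limma.

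Of the 7 effectors, 0 passed an unadjusted P of 0.05 in either direction. YAP1 was at 19.95 and 20.1 FPKM with control siRNA and at 31.4 and 22.9 FPKM with KIF26B siRNA, so it was higher in both, against the direction of the cascade genes (log2 difference 0.40, SE 0.19, adjusted p = 0.378 from limma). WWTR1, which encodes TAZ, was at 13.6 and 13.6 FPKM with control siRNA and at 10.4 and 6.55 FPKM with KIF26B siRNA, so it was lower in both (log2 difference −0.65, SE 0.24, adjusted p = 0.304 from limma). Among 13 tested target genes of YAP and TAZ (19 listed), 11 had a log2 difference below 0 and 2 above, with a median of −0.38. Of all 14523 genes tested, 7490 were below 0 and 7033 above. At an unadjusted P below 0.05, 5 targets were lower and 1 higher, beside 8.68% and 7.74% of all genes tested. Of these 6, the 4 with the largest differences were CCN2 (−1.61), CCN1 (−0.75), ASAP1 (−0.74) and MYOF, which was higher (0.66), with adjusted p of 0.242 or more in limma. The other two, NUAK2 (−0.58) and NT5E (−0.38), were named after their values were seen.

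**Figure D4:**
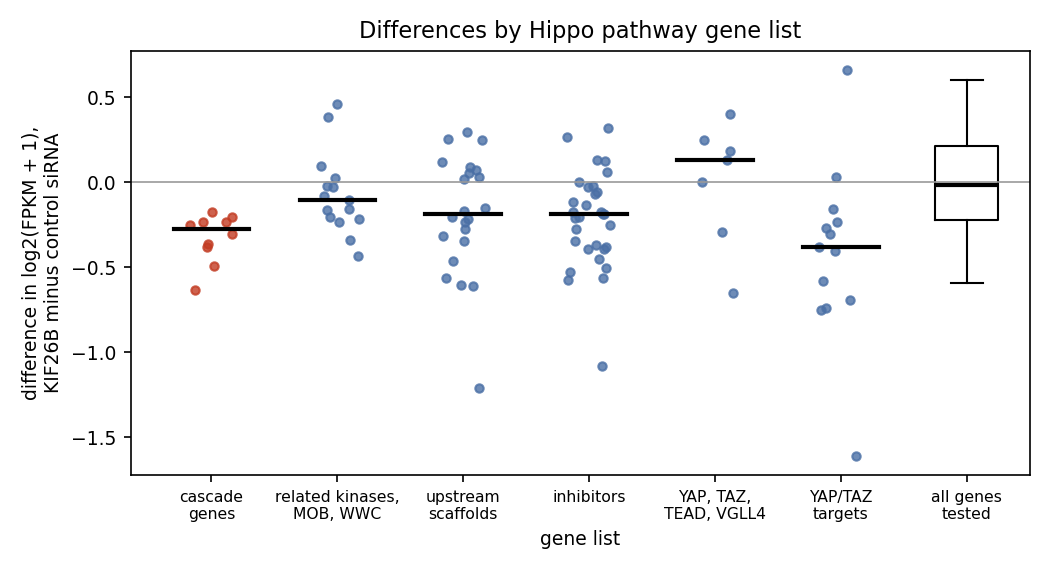
Difference in log2(FPKM + 1), KIF26B siRNA minus control siRNA, for each tested gene of the 6 pathway lists (points) with the list median (black bar), beside all genes tested (box from the lower to the upper quartile, whiskers at the 5th and 95th percentiles). The medians are −0.28 for the cascade genes, −0.19 for the inhibitors and 0.13 for the YAP, TAZ, TEAD and VGLL4 group.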

How the data were processed

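RNA-seq of 4 HCT116 libraries was analysed (control siRNA and KIF26B siRNA, replicates 1 and 2, grouped by their labels). Polyadenylated mRNA was selected by the authors on poly-T beads and sequenced from both ends, and the reads were aligned with HISAT2 (version 2.0.5 in the submitters' processing notes, which also name featureCounts 1.5.0-p3). The Methods name hg19 and the processing notes hg38, and the annotation release was not given in the sources used here. The deposited values are FPKM per gene, a unit read from the values. Of 58735 identifiers, 56513 had a symbol in GENCODE on GRCh37, which also gave the gene coordinates. Promoter sequences and their coordinates are from RefSeq (GRCh38.p14).

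Whole reads were recovered by finding, for each gene, a length at which its FPKM gave whole numbers (within 0.01) in all libraries. This succeeded for nearly all of the 34638 genes above 0. The step between reads of STK4 also allows 2 times the reads given by the smaller length (2349 in control siRNA replicate 1), since the annotated length lies nearer to the longer one. Totals, and the mitochondrial shares and the scaling by total recovered reads that rest on them, depend on this choice of length.

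Groups were compared with limma on log2(FPKM + 1) over genes averaging 1 FPKM or more, with no covariate, and p-values were adjusted by the Benjamini-Hochberg method over all genes tested. Fold changes on this scale understate those of low genes. The test of the Methods, DESeq2, needs counts and was not used. Means are given with SD over 2 libraries. Genes named in the text are the 10 cascade genes, KIF26B, YAP1, WWTR1, and of each pathway list up to 4 genes with the largest difference at an unadjusted P below 0.05; ATL1, DCK, STK26, NUAK2, NT5E and the markers named were chosen after their values were seen. The cascade genes and the lists were chosen with earlier results of these data known. The fit was tested on simulated data of 14268 genes. It recovered 97.3% of the 187 genes made to differ and also called 31 genes that were not. These values hold for those data only. Replicates with the same number are not paired by the labels. Alternatives were the replicate block, pseudocount, filters, scaling, variance trend, limma-voom on recovered reads and leaving out each library; scaling by total recovered reads was added after seeing the data. R 4.3.3, limma 3.58.1, Python 3.11.15, numpy 2.4.6, pandas 2.3.3, scipy 1.17.1 and matplotlib 3.10.9 were used.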

Additional observations from a re-analysis of the deposited data

How the results depend on the processing

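The 10 cascade genes kept their direction in 119 of 120 refits (12 per gene), largely by construction. Filters, block and variance trend cannot change a difference, and no left-out library can reverse the 9 genes without overlap. MOB1B was the exception (−0.57 and 0.10 without KIF26B siRNA replicates 2 and 1). The median of the 10 genes ranged from −0.35 to −0.27 when a library was left out (lowest without KIF26B siRNA replicate 1) and lay between −0.31 and −0.28 otherwise. The number of cascade genes lower at an unadjusted P below 0.05, 3 in the report, was 7 without a filter (6.31% of all genes in that fit), 4 with scaling by total recovered reads (10.2%; chosen after seeing the data), 5 with at least 1 FPKM in every library (9.9%), 5 with a variance trend (9.08%) and 6 with limma-voom (10.1%), against 8.68% in the report. With the replicate block the number was 2 (5.93%). When a library was left out, the number ranged from 0 to 9, and the share of all genes moved too: 0 without either control library (1.67% and 1.61% of all genes), 7 without KIF26B siRNA replicate 1 (23.7%) and 9 without KIF26B siRNA replicate 2 (22.4%). The lone library of a group is there assumed to vary like the other group. No cascade gene was higher at this P under any alternative. Same-numbered libraries, not paired by label, had deviations correlated at −0.0031 over genes.

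Over all genes, 88 were lower and 118 higher at an unadjusted P below 0.05 and a log2 difference beyond 1. With a pseudocount of 0.1 these were 203 and 217, with at least 1 FPKM in every library 52 and 69, and with limma-voom 204 and 197. They ranged from 123 to 223 and from 156 to 334 when a library was left out. With the block they were 98 and 135. The number of genes with an adjusted p below 0.05 was 0 in limma under every alternative with 4 libraries, and ranged from 0 to 2507 when a library was left out, with the highest count without KIF26B siRNA replicate 1. That fit takes the spread between replicates from the control libraries alone, so its count cannot be set beside those with 4 libraries. In it the log2 differences of SAV1, WWC1 and MOB1A were −0.73, −0.48 and −0.47. With all libraries they were −0.63, −0.49 and −0.36. For WWTR1 the log2 difference was −0.95 in that fit and −0.65 with all libraries. The causes were not tested.

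The paralog ratios changed sign within the replicate block. STK3/STK4 differed by −0.041 within number 1 and 0.23 within number 2, LATS2/LATS1 by −0.31 and 0.30, and MOB1A/MOB1B by 0.41 and −0.62. When a library was left out they ranged from −0.076 to 0.26 (STK3/STK4), from −0.30 to 0.29 (LATS2/LATS1) and from −0.60 to 0.40 (MOB1A/MOB1B). KIF26B was lower in each refit, and its log2 difference of −0.09 became −1.13 in limma-voom, −0.52 at a pseudocount of 0.1 and −0.17 to −0.02 when a library was left out. Its 8 to 73 reads limit that check.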
